A study of Homo sapiens with 24 samples.

Results

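The comparison described here asks whether 24 h of Pirfenidone changed gene expression differently in A549 and H1975 cells. It uses 12 of the 24 arrays of the series, 3 in each of 4 groups: A549 with PBS, A549 with 0.75 mg/ml Pirfenidone, H1975 with PBS and H1975 with 0.75 mg/ml Pirfenidone, all harvested at 24 h. A549 and H1975 are established human lung adenocarcinoma lines. Pirfenidone is an antifibrotic drug approved for idiopathic pulmonary fibrosis, and the control cells received the same volume of its solvent PBS. Each RNA sample was hybridized to its own one-color Agilent array, on which the brightness of a spot measures the RNA bound by its probe. For each pair of arrays run on the same day in a line, the PBS value was subtracted from the Pirfenidone value, which gave 3 changes per line. The line difference is the mean change in H1975 minus the mean change in A549, so it is positive where a transcript was raised more, or lowered less, in H1975. All values are log2 values relative to the 75th percentile of their array, and 1 unit is a factor of 2. A probe was called when limma gave an adjusted p of 0.05 or less and a line difference of at least 1 in size. The labels do not say whether the 3 samples of a group came from separate cultures, so the p-values measure only the spread between these samples.

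The lists that held the most called genes were those of the integrated stress response and of amino acid supply. In the integrated stress response, kinases that sense amino acid shortage, endoplasmic reticulum stress or mitochondrial stress phosphorylate the initiation factor eIF2α, general translation falls, and the transcription factor ATF4 is made in its place. ATF4 and its partners then raise genes for amino acid import and synthesis, and genes such as DDIT3 and CHAC1 that act in prolonged stress. Genes of the cell division cycle are described as well. With all pairs included, all tested genes of the S phase and G2/M lists had a negative line difference. Without the A549 replicate 3 pair the medians of both lists were smaller in size. E2F factors switch the cell division cycle on at the entry into S phase, and the DREAM and MYB-MuvB complexes time its genes for mitosis.

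The levels fitted the line labels. The A549 markers AKR1B10, AKR1C1, ALDH1A1 and ALDH3A1 were higher in all 6 A549 arrays than in all 6 H1975 arrays, with mean AKR1B10 levels of 7.13 and -1.56. Of the neighbors CDKN2A and CDKN2B, whose region is deleted in A549, CDKN2B was well above background on 0 of 6 A549 and 6 of 6 H1975 arrays. CDKN2A was well above it on 6 of 6 arrays of both lines, at means of -1.65 and 2.80. Markers of other cells were mixed. The leukocyte markers PTPRC, CD14 and CD68 and the endothelial CDH5 were well above background on 6 of 6 arrays of both lines, with CD68 at -0.88 in A549 and 1.53 in H1975, and the fibroblast marker LUM on 6 of 6 A549 arrays. The T cell marker CD3E was well above background on 0 of 6 A549 arrays and 1 of 6 H1975 arrays, and the fibroblast markers COL3A1 and DCN on 0 of 6 in both lines. The endothelial markers PECAM1 and VWF were above it in H1975 only, at mean levels of -4.31 and -6.45, and COL1A2 stood at 1.76 in H1975.

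A single pair of arrays stood apart. Across 23795 probes with a value on every array, the changes of the 3 H1975 pairs correlated with each other with a Pearson r between 0.58 and 0.64, and those of A549 replicates 1 and 2 with an r of 0.39. The change of A549 replicate 3 correlated negatively with both other A549 pairs, with r values of -0.37 and -0.55, and with all 3 H1975 pairs, with r values between -0.40 and -0.47. These correlations are across probes, which are not independent, and are given as a description without a test. Both arrays of that pair lay on the same slide and were scanned on the same day. The median standard deviation of the 3 changes was 0.304 in A549 at 24 h against 0.157 in H1975 at 24 h. The fit shares 1 spread over both lines and both times, so it understates the spread of A549 at 24 h. The arrays were used as labelled. Whether the treatment labels of this pair are right was not tested, and every value that includes the pair depends on them. The counts and the genes described at length below are therefore given with and without the A549 replicate 3 pair. The pair of H1975 replicate 1 also differs from the rest, since its arrays lay on 2 slides scanned on different days. Within a line the place on the slide went with the treatment, so place and treatment cannot be told apart.

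Of 23827 probes tested, 307 (1.29%) had a different change in the 2 lines. The change was higher in H1975 for 258 probes of 246 genes (1.08%) and lower for 49 probes of 47 genes (0.206%). Without the A549 replicate 3 pair, 397 probes were called (1.67%), 295 higher (1.24%) and 102 lower (0.428%) in H1975. The overlap held 195 probes (0.818% of all tested), which is 63.5% of the calls with the pair and 49.1% of the calls without it, and no probe changed direction. The size of these counts depended strongly on how the spread was estimated. When only the 6 changes at 24 h were fitted, 6 probes were called, and 0 after the A549 replicate 3 pair was left out as well, with 4199 probes at an unadjusted limma p under 0.05. When all 24 arrays were fitted as 8 groups without using run days, 46 probes were called. For the genes described at length the values of every pair of arrays are given below. As a plain count, the 3 changes of H1975 lay all above or all below the 3 changes of A549 for 6150 probes (25.8%).

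**Figure D1:**
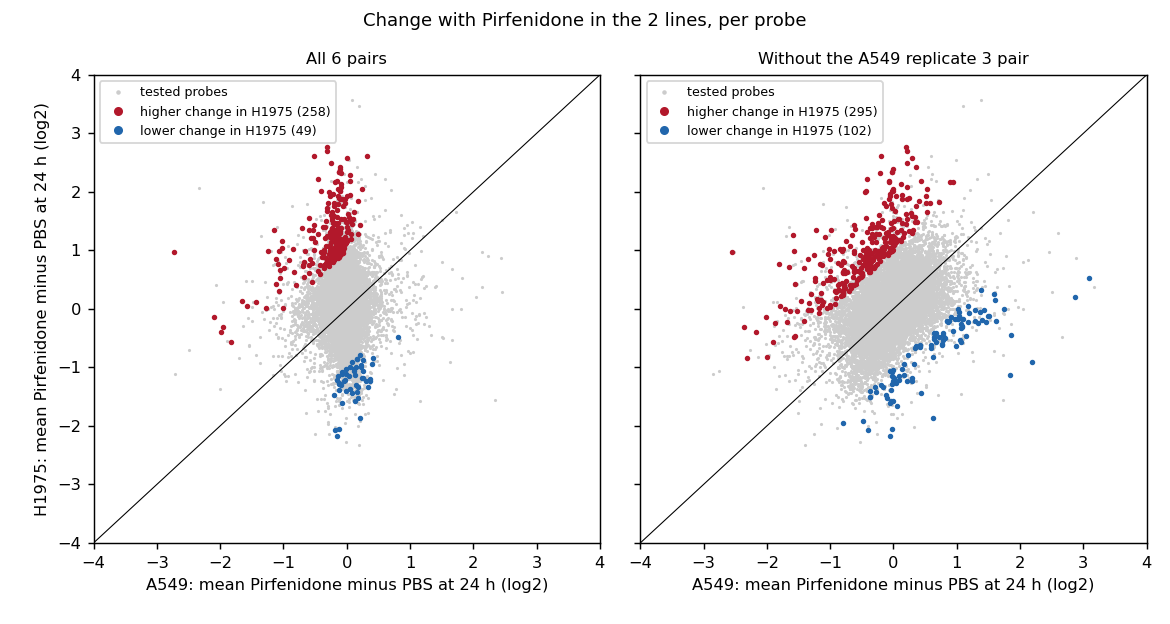
Mean change with Pirfenidone at 24 h in A549 (horizontal, log2) against H1975 (vertical, log2) for the 23827 probes tested, with all pairs (left) and without the A549 replicate 3 pair (right). Red and blue points are called probes with a higher (258 and 295) or lower (49 and 102) change in H1975, and the line marks equal change. With all pairs the called probes lie along the vertical axis, at small A549 changes. Without the pair the gray cloud tilts upward, toward equal change.

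At the called probes the mean change was mostly larger in size in H1975 and small in A549. Among the 258 probes with a higher change in H1975 the median change was 1.15 in H1975 and -0.17 in A549, and 213 of them had a mean A549 change under 0.5 in size. A small A549 mean was usual, since the median absolute mean change over all probes tested was 0.08 in A549 and 0.22 in H1975. The A549 mean also joins pairs that ran opposite ways. Replicate 3 was the lowest of the A549 changes for 180 of the 258, and without it the median A549 change was -0.05. Taken alone, the change in H1975 passed the same thresholds for 166 of the 258 probes, against 2.76% of all probes tested, and the change in A549 for 9, against 0.0504%. The probes were selected with these same changes, so such an excess is built in and is only a description. For 83 of the 258, neither change was called on its own. The 49 probes with a lower change in H1975 had a median change of -1.19 in H1975 and 0.12 in A549, and for 38 of them the fall in H1975 was itself called. Not every call rests on a measured change in both lines. Among the 258, 136 stood well above background on each of the 12 arrays, and 71 did so on none of the 6 A549 arrays, where their A549 change is not a measured one. The corresponding numbers for the 49 probes were 30 and 11. Over all 23827 probes tested they were 19198 (80.6%) and 1543. Among the 258 and the 49 probes, 52.7% and 61.2% stood well above background on each of the 12 arrays, a lower share than among all probes. Each gene named by rule below was well above background on all 12 arrays. The probes nearest to the threshold were CAVIN2 (-1.1, limma adjusted p = 0.0499) and SLC16A6 (1.1, limma adjusted p = 0.0499) inside it, and FBXO5 (-1.06, limma adjusted p = 0.0501) and PGBD1 (-1.05, limma adjusted p = 0.0504) outside it.

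Some of the stress response promoters carry the composite element read by ATF4 with C/EBP partners, and 4 promoters of called genes that contain it are shown. The sequences are the 250 bases before the annotated start, 5′ to 3′ in the direction of the gene, from RefSeq on GRCh38.p14. Capitals mark each match to TGATGNAA, searched on both strands. They lie at chr15:40953221-40953470 (plus strand) for CHAC1, chr7:97872409-97872658 (minus strand) for ASNS, chr19:33373863-33374112 (plus strand) for CEBPG and chr14:75427772-75428021 (plus strand) for JDP2.
CHAC1: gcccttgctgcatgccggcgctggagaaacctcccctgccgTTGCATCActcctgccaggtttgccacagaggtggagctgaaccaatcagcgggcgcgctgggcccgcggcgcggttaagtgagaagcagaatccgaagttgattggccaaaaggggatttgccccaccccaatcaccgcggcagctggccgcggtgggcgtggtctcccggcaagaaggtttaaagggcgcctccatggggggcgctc
ASNS: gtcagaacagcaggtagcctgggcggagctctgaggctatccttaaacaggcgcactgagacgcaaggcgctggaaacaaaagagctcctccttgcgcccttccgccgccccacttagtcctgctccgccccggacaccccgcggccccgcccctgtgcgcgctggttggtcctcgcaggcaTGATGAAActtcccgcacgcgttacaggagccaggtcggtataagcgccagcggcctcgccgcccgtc
CEBPG: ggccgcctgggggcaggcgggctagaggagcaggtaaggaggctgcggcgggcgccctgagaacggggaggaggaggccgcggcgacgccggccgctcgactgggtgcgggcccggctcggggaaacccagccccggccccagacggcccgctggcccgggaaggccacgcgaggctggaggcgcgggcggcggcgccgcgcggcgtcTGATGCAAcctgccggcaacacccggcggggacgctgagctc
JDP2: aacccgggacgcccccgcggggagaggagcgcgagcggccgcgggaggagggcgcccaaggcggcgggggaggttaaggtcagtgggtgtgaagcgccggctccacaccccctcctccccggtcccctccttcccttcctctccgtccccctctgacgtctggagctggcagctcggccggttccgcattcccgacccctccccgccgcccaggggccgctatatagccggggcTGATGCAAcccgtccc
The match begins 209 bases before the start in CHAC1, 68 in ASNS, 42 in CEBPG and 16 in JDP2. ASNS and CEBPG have 2 starts in the table and JDP2 has 3, and the one with the match is shown. Of 35116 promoters of this length, 3.14% held the motif, and of 27305 genes 3.89% held it before at least 1 start. Among the 19 stress response genes tested, 16 had a promoter in the table and 4 held it: ATF3, CEBPG, CHAC1 and JDP2. Of the 16 genes of amino acid synthesis and one-carbon metabolism 11 were in the table and 3 held it, ASNS, GOT1 and MTHFD1L. Lists without a called gene held it at similar shares, in 2 of 8 interferon-stimulated genes and 3 of 16 cytosolic aminoacyl-tRNA synthetases. A match is a description of letters and not a binding site, and no binding was measured here.

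The stress response list, of ATF4, its partners and their targets, held the most called genes of the lists examined. Of 19 genes tested, 8 had a higher change in H1975 and 0 a lower one, against 1.08% and 0.206% of all probes. Its median line difference was 1.43 with the A549 replicate 3 pair and 1.22 without it, beside 0.06 and 0.04 over all probes tested. Without the pair 6 of the genes were called, all of them among the 8. Counts over a list take the brightest probe of each gene. At 24 h, 12 of the 19 genes rose in H1975, against 2.76% of all probes called there. In A549 0 rose, where 0.0504% of all probes were called, so that this 0 says little about the list.

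CHAC1, an enzyme that degrades glutathione, had the largest line difference among the genes named by rule. Its probe covers positions 41248631 to 41248690 of chromosome 15 in hg19. In A549 its level was 0.24, 0.36 and 1.77 with PBS and 0.15, 0.86 and 0.44 with Pirfenidone in replicates 1 to 3. In H1975 it was -0.95, -0.94 and -1.0 with PBS and 1.62, 1.58 and 2.24 with Pirfenidone. All H1975 arrays with Pirfenidone lay above all with PBS, whereas the A549 groups overlapped and the PBS array of replicate 3 was the highest of the A549 arrays. The changes were -0.10, 0.50 and -1.34 in A549 and 2.56, 2.52 and 3.24 in H1975. The line difference was 3.08 (standard error 0.56, limma adjusted p = 0.0214) with the pair and 2.57 (limma adjusted p = 0.0306) without it. The other probe of CHAC1 gave 3.01 (limma adjusted p = 0.0161).

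ADM2, a peptide hormone gene of the stress response, followed with a line difference of 2.75 (standard error 0.38, limma adjusted p = 0.00959). Its level was -3.62, -3.28 and -2.47 with PBS and -3.34, -3.15 and -3.66 with Pirfenidone in A549. In H1975 the levels were -2.44, -2.41 and -2.76 with PBS and -0.11, -0.20 and 0.17 with Pirfenidone. The groups were apart in H1975 and overlapped in A549. Without the pair the line difference was 2.28 (limma adjusted p = 0.00587), and a second, dimmer probe of the gene gave 0.20 (limma adjusted p = 0.556).

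GDF15, a secreted stress cytokine, was high in A549 under both treatments. Its A549 levels were 4.35, 4.33 and 4.82 with PBS and 4.34, 4.57 and 4.31 with Pirfenidone. Its H1975 levels were 2.10, 2.25 and 2.04 with PBS and 4.12, 4.23 and 4.46 with Pirfenidone. With Pirfenidone the highest H1975 level was within the range of the A549 arrays, and the other two were below the lowest of them. The line difference was 2.23 (standard error 0.25, limma adjusted p = 0.0050) with the pair and 2.03 (limma adjusted p = 0.00597) without it.

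The remaining called members were regulators and secreted factors. JDP2, a repressor of AP-1 sites, had a line difference of 1.97 (limma adjusted p = 0.00747), with changes of 1.83, 1.93 and 1.90 in H1975 and 0.04, 0.39 and -0.68 in A549. NUPR1, a stress-induced chromatin protein, had a line difference of 1.67 (limma adjusted p = 0.0193), the glycoprotein hormone STC2 one of 1.43 (limma adjusted p = 0.0483), and CEBPG, a dimer partner of ATF4, one of 1.16 (limma adjusted p = 0.0170). VEGFA, the vascular growth factor, was called on both of its probes, at 1.13 (limma adjusted p = 0.0131) and 1.15 (limma adjusted p = 0.0050). Without the pair JDP2 had 1.67, NUPR1 1.45 and VEGFA 1.22 and 1.21, all called. STC2 and CEBPG were not called without the pair, at 1.50 (limma adjusted p = 0.0585) and 0.98 (limma adjusted p = 0.0165).

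Of the 4 probes of ATF3, a stress-induced repressor, 1 was called. That probe gave 1.88 (limma adjusted p = 0.0483), the brightest gave 1.73 (limma adjusted p = 0.0621) and the others gave 1.31 and 0.04, and the called probe was not called without the pair (1.85, limma adjusted p = 0.0716). ATF4 itself had a line difference of 0.76 (limma adjusted p = 0.0283), below the size limit, and DDIT3, the pro-apoptotic factor CHOP, one of 1.84 (limma adjusted p = 0.0658). In H1975 DDIT3 rose by 1.71, and ATF4 changed by 0.69. In A549 the mean changes were -0.13 for DDIT3 and -0.07 for ATF4.

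Genes of amino acid supply moved in the same direction as the stress response list. Of 16 genes of amino acid synthesis and one-carbon metabolism, 6 had a higher change in H1975 and 1 a lower one, against 1.08% and 0.206% of all probes. The median line difference was 0.72 with the pair and 0.60 without it. ASNS, asparagine synthetase, had levels of 5.05, 4.79 and 5.77 with PBS and 5.17, 5.17 and 4.90 with Pirfenidone in A549. In H1975 the levels were 3.77, 3.91 and 4.18 with PBS and 5.57, 5.71 and 6.24 with Pirfenidone, with no overlap between the groups. Its line difference was 2.02 (standard error 0.26, limma adjusted p = 0.00711) with the pair and 1.64 (limma adjusted p = 0.00109) without it. The serine pathway enzymes PHGDH and PSAT1 had line differences of 1.94 (limma adjusted p = 0.0205) and 1.40 (limma adjusted p = 0.0180). The transsulfuration enzymes CTH and CBS, which make cysteine, had 1.49 (limma adjusted p = 0.00902) and 1.1 (limma adjusted p = 0.0394), and the alanine transaminase GPT2 had 1.1 (limma adjusted p = 0.0142). SHMT1, a cytosolic enzyme of the folate cycle, was the 1 member with a lower change, at -1.03 (limma adjusted p = 0.0314). Without the pair PHGDH, PSAT1 and CTH had 1.43, 1.13 and 1.50, all called. Without the pair CBS, GPT2 and SHMT1 stayed under the size limit, at 0.78, 1.0 and -0.79.

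Of 12 amino acid transporters 2 were called, both with a higher change in H1975, against 1.08% of all probes. The median was 0.64 with the pair and 0.51 without it. SLC7A11, the cystine importer, had changes of 1.78, 1.88 and 2.89 in H1975 and 0.35, 0.51 and -0.72 in A549. Its line difference was 2.14 (standard error 0.40, limma adjusted p = 0.0230) with the pair and 1.75 (limma adjusted p = 0.0306) without it. SLC7A11 levels in A549 lay between 2.99 and 3.83 in all 6 arrays, above every H1975 array, of which the highest was 1.57. SLC1A4, a transporter of neutral amino acids, had a line difference of 1.57 (limma adjusted p = 0.0186) with the pair and 1.31 (limma adjusted p = 0.0212) without it. No cytosolic aminoacyl-tRNA synthetase was called among 20 tested by limma, and 14 of them had a positive line difference, with a median of 0.35 with the pair and 0.33 without it. No mitochondrial one was called among 17, with a median of -0.21 and -0.11. With 1.29% of all probes called, 0 calls among so few genes say little about either list.

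**Figure D2:**
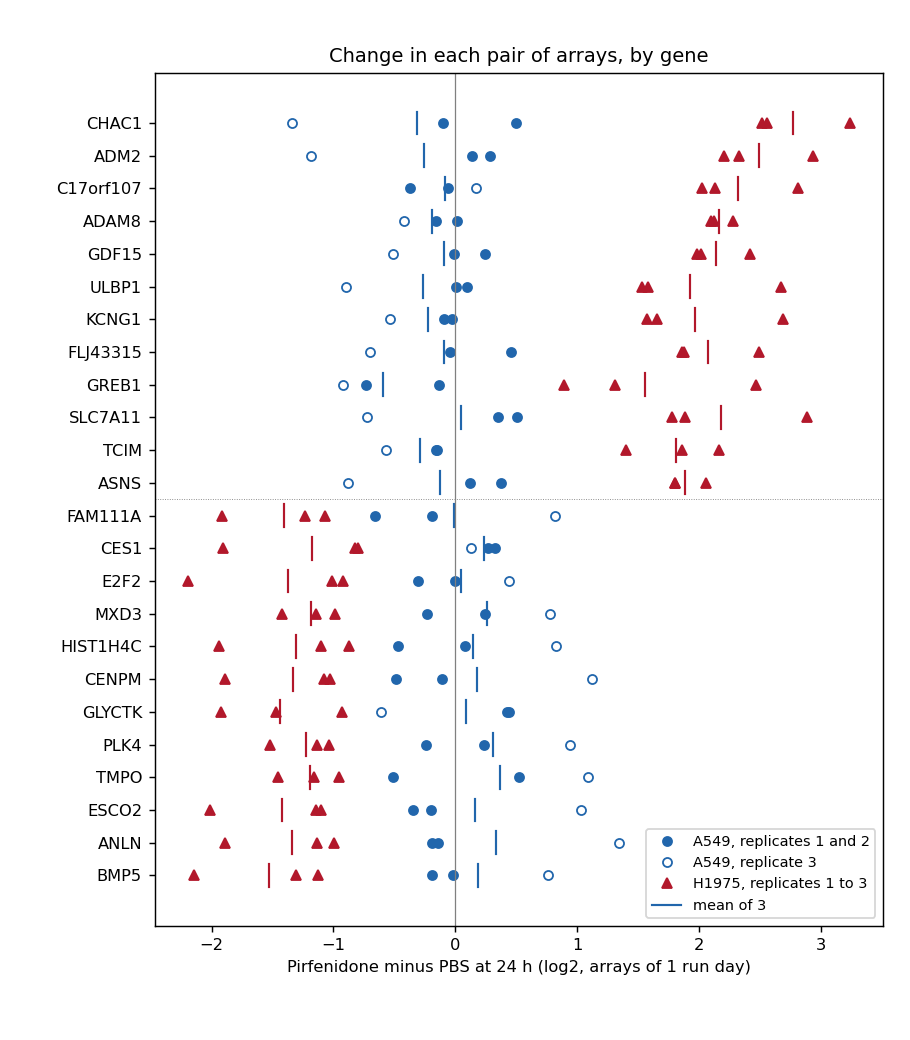
Change with Pirfenidone at 24 h (log2, horizontal) in each pair of arrays for the 12 genes with the highest and the 12 with the lowest line difference among called probes well above background on all 12 arrays. Blue circles are A549 pairs (open for replicate 3), red triangles H1975 pairs and short lines the means of 3. The genes were chosen by this contrast, so the gap between the lines is a description. The open circles lie left of the other A549 pairs for CHAC1 (-1.34) and right of them for ANLN (1.34).

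The other genes of the 12 highest had varied functions. ADAM8, a membrane metalloprotease, had the smallest spread, with levels of 0.15, -0.37 and 0.29 with PBS and 0.00, -0.35 and -0.14 with Pirfenidone in A549. In H1975 its levels were 1.07, 0.98 and 0.19 with PBS and 3.17, 3.10 and 2.47 with Pirfenidone. The line difference was 2.35 (standard error 0.19, limma adjusted p = 6.1e-04) with the pair and 2.24 (limma adjusted p = 0.00135) without it, and ADAM8 was also called when only the changes at 24 h were fitted (limma adjusted p = 0.0398). ULBP1, a ligand of the natural killer cell receptor NKG2D, had a line difference of 2.20 (limma adjusted p = 0.0272), and its other probe gave 2.02 (limma adjusted p = 0.231). KCNG1, a modifying subunit of voltage-gated potassium channels, had 2.19 (limma adjusted p = 0.0128) and TCIM, a small regulator of WNT signaling, 2.10 (limma adjusted p = 0.00361). C17orf107 and FLJ43315 had 2.41 (limma adjusted p = 0.00634) and 2.17 (limma adjusted p = 0.00706). GREB1, known as an estrogen-responsive gene, was called on its dimmer probe at 2.15 (limma adjusted p = 0.0193), whereas its brighter probe gave -0.43 (limma adjusted p = 0.454). Without the pair the called probes of ULBP1, KCNG1, TCIM, C17orf107, FLJ43315 and GREB1 had 1.88, 2.03, 1.96, 2.54, 1.87 and 1.99, all called.

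The 6 probes called when only the changes at 24 h were fitted are named here after their values were seen. ADAM8 and PLIN4, a coat protein of lipid droplets, stood well above background on each of the 12 arrays. PLIN4 changed by 1.79, 1.85 and 1.97 in H1975 and by 0.10, -0.24 and -0.15 in A549. TREM1, FGF19, CSRP3 and a second probe of ECM2 were well above background on 0 of 6 A549 arrays, and FGF19 and ECM2 on 3 of 6 H1975 arrays. For these 4 no A549 change was measured, so no line difference is given.

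Single members of other lists were called as well, beside 1.29% of all probes tested with the pair and 1.67% without it. CDKN1A, the cyclin-dependent kinase inhibitor p21, and BBC3, the pro-apoptotic PUMA, had line differences of 1.33 (limma adjusted p = 0.0496) and 1.27 (limma adjusted p = 0.0216), and they were 2 of 22 p53 targets called, with a list median of 0.19 with the pair and 0.02 without it. Without the pair BBC3 had 1.04 and was called. The CDKN1A difference was then 0.89 (limma adjusted p = 0.0266), below the size limit. DUSP6, a phosphatase that inactivates ERK, was 1 of 15 genes of the MAPK feedback list called (list median 0.57), at 1.63 (standard error 0.20, limma adjusted p = 0.00682) with the pair and 1.46 (limma adjusted p = 0.00713) without it. NDRG1, a stress and hypoxia gene, had 1.22 (limma adjusted p = 0.0359) with the pair and 0.84 without it, and with VEGFA it made 2 of 13 hypoxia targets. Limma called 0 of the genes tested for the ER chaperones (17), heat shock proteins (12), NRF2 targets (16), AHR targets (7), cholesterol and fatty acid synthesis (20), interferon-stimulated genes (12), and GAS5 and SNHG transcripts (10). Their list medians lay between -0.17 and 0.24. With so few of all probes called, a count of 0 in lists of this size says little about them. A single gene each was called among 15 apoptosis regulators (BBC3) and 11 genes of the MYC network (MXD3), and CDKN1A and E2F2 were called in opposite directions among 22 E2F and cell cycle factors. Of 11 inflammatory cytokines 0 were called by limma, with a median of 0.50, and 1 was called without the pair. The ER chaperone list changed sign with the pair, with a median of 0.10 with it and -0.25 without it.

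On the other side, genes of the cell division cycle had a lower change in H1975, but few single genes were called. All 54 G2/M genes and all 46 S phase genes tested had a negative line difference, and 2 of each were called, against 0.206% of all probes. The G2/M median was -1.24 with the A549 replicate 3 pair and -0.63 without it, and the S phase median was -0.94 and -0.56. In the single pairs the G2/M median change was -0.20, -0.69 and 1.30 in A549 replicates 1 to 3 and -0.85, -0.89 and -1.54 in H1975. A549 replicates 1 and 2 thus moved in the direction of H1975, and replicate 3 moved the other way. In H1975, 29 of the 54 G2/M genes fell at 24 h, against 2.76% of all probes called. In bulk RNA, fewer cells in division and less of these transcripts per cell cannot be told apart. The called genes were ANLN and TMPO of the G2/M list and HELLS and RAD51AP1 of the S phase list. HELLS and RAD51AP1 were not called without the pair, at -0.75 (limma adjusted p = 0.0357) and -1.05 (limma adjusted p = 0.0583).

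**Figure D3:**
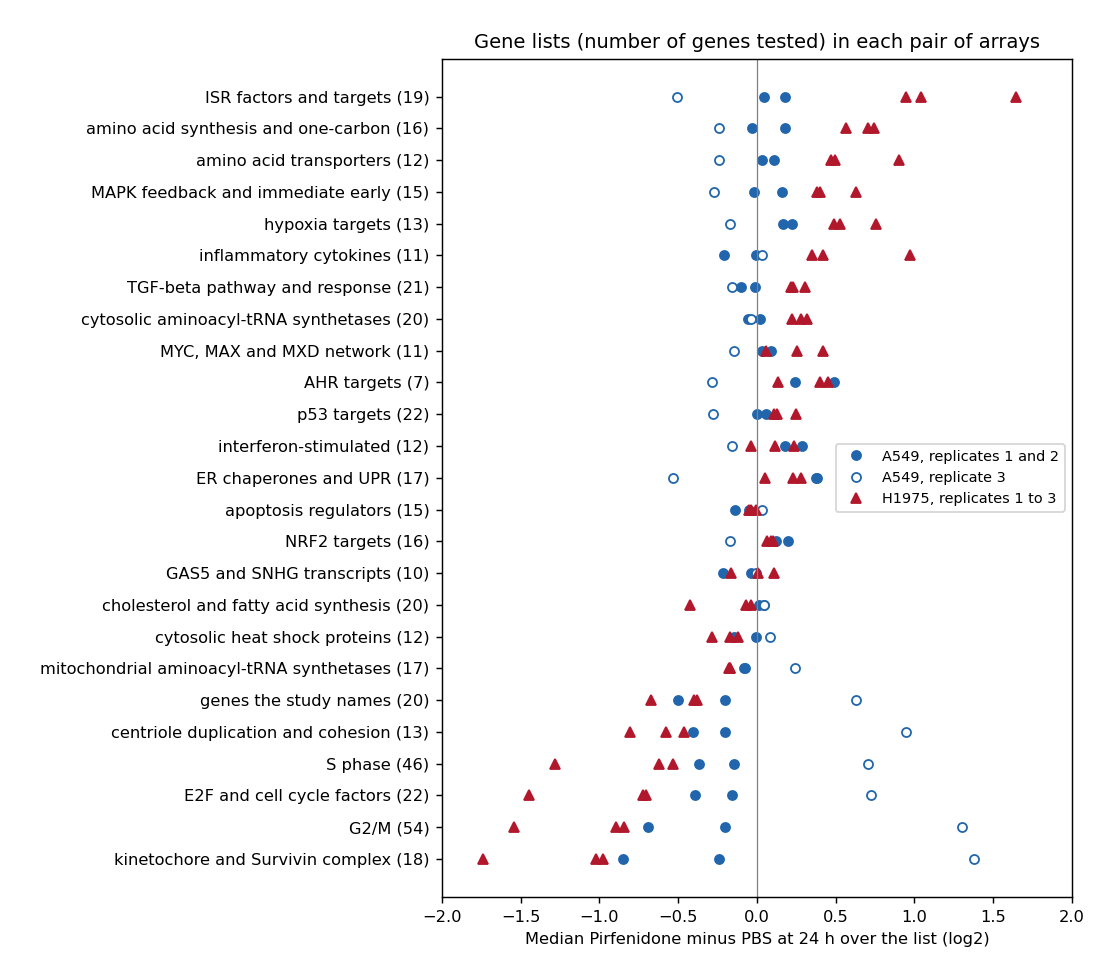
Median change with Pirfenidone at 24 h (log2, horizontal) over the tested genes of each list, in each pair of arrays, with the number of genes in parentheses. Blue circles are A549 pairs (open for replicate 3) and red triangles H1975 pairs. The lists at the top, such as the integrated stress response (ISR, 0.95 to 1.64 in H1975), lie right of all A549 pairs. For the cell cycle lists at the bottom, A549 replicate 3 lies alone on the right, at 1.30 for G2/M.

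On both run days that held each line at 24 h the stress response list had a positive line difference, while that of the cell cycle lists was near 0 on one of them. On the first of these days, which holds the A549 replicate 3 and H1975 replicate 3 pairs, the median line difference was 2.21 for the stress response list and -2.86 for G2/M. On the other, with A549 replicate 2 and H1975 replicate 1, it was 0.83 for the stress response list and -0.15 for G2/M. CHAC1 gave 4.57 and 2.06 on these days, and ANLN -3.23 and -0.85. BIRC5, the apoptosis inhibitor Survivin, gave -3.55 and -0.15. The called probes were chosen with these same pairs, so their sign within a day is not read here.

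ANLN, the cytokinesis scaffold anillin, is described as a called G2/M gene and does not stand for the list. Its levels in A549 were 0.55, 0.50 and -0.51 with PBS and 0.35, 0.36 and 0.83 with Pirfenidone. In H1975 they were 2.10, 2.18 and 2.18 with PBS and 1.11, 1.04 and 0.29 with Pirfenidone. The PBS array of A549 replicate 3 was the lowest and the Pirfenidone array the highest of the A549 arrays, whereas the H1975 groups were apart. The line difference was -1.67 (standard error 0.37, limma adjusted p = 0.0398) with the pair and -1.17 (limma adjusted p = 0.0224) without it. The medians of the G2/M list were -1.24 and -0.63. The promoter of ANLN is shown because it contains TTTGAA, the letters of the cell cycle homology region through which the MuvB core binds many mitotic genes. It lies at chr7:36389612-36389861 (plus strand) on GRCh38.p14, again as the 250 bases before the start with matches on both strands in capitals.
ANLN: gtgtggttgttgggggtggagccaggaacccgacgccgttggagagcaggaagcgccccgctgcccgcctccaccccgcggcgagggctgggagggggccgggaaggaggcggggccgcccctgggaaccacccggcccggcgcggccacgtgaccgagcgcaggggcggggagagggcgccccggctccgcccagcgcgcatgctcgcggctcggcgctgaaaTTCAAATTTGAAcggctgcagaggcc
Of all promoters of this length 13.3% held the motif, and of all genes 16.1% before at least 1 start. Among the G2/M genes 45 were in the table and 26 held it, and among the S phase genes 35 were in the table and 4 held it. The reverse complement TTCAAA stands directly before it in ANLN, 26 bases before the start.

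Other called genes with a lower change act in division and DNA synthesis. PLK4, the kinase that starts centriole duplication, had changes of -1.13, -1.04 and -1.52 in H1975 and -0.24, 0.23 and 0.94 in A549, with a line difference of -1.54 (standard error 0.26, limma adjusted p = 0.0182) with the pair and -1.23 (limma adjusted p = 0.0128) without it. ESCO2, an acetyltransferase of sister chromatid cohesion, had -1.58 (limma adjusted p = 0.0376). PLK4 and ESCO2 were called among 13 genes of centriole duplication and cohesion with and without the pair, against 0.206% and 0.428% of all probes. MXD3, an MYC antagonist expressed in dividing cells, had -1.45 (limma adjusted p = 0.0142) with the pair and -1.19 (limma adjusted p = 0.00864) without it. TMPO, a nuclear lamina protein, and CENPM, a centromere protein, had -1.56 (limma adjusted p = 0.0372) and -1.51 (limma adjusted p = 0.0483). Without the pair ESCO2, TMPO and CENPM had -1.15, -1.20 and -1.04, all called. Other probes of these genes were not called, at -0.88 for TMPO, -1.65 and -1.31 for CENPM, -1.68 for ESCO2 and -0.19 for MXD3, the last well above background on 6 of the 12 arrays. E2F2, HIST1H4C and FAM111A, which act in S phase entry, chromatin and replication, had -1.42, -1.45 and -1.40, and none of these 3 was called without the pair (-1.22, -1.11 and -0.98).

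Genes outside the division cycle were also among the 12 lowest. BMP5, a ligand of the BMP family, had the lowest line difference, -1.71 (standard error 0.29, limma adjusted p = 0.0181) with the pair and -1.42 (limma adjusted p = 0.0190) without it. Its levels in H1975 were -3.75, -3.78 and -4.25 with PBS and -4.88, -5.09 and -6.40 with Pirfenidone. CES1, a carboxylesterase that hydrolyzes drugs and lipids, was called on 1 of its 3 probes, at -1.42 (limma adjusted p = 0.0205), with -1.47 without the pair, and its other probes gave -0.39 and -0.43. On the called probe the PBS levels of CES1 were 2.02, 1.60 and 0.19 in A549 and -3.93, -3.90 and -4.15 in H1975. GLYCTK, glycerate kinase, had -1.53 (limma adjusted p = 0.0348) with the pair and -1.88 (limma adjusted p = 0.00960) without it. Its changes were 0.44, 0.42 and -0.61 in A549 and -1.47, -0.93 and -1.93 in H1975, so that A549 replicate 3 was the pair nearest to H1975 here. Its other probe gave -0.80 (limma adjusted p = 0.181).

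None of the 20 genes that the study names was called for a line difference by limma. With 1.29% of all probes called, that count says little about them. Of the 20 genes, 7 fell in H1975 at 24 h, against 2.76% of all probes called there. BIRC5 had levels of 5.04, 5.10 and 3.66 with PBS and 4.81, 4.27 and 5.14 with Pirfenidone in A549, where the groups overlapped. In H1975 its levels were 4.52, 4.50 and 5.26 with PBS and 3.53, 3.45 and 3.19 with Pirfenidone, where they did not. Its line difference was -1.51 (standard error 0.49, limma adjusted p = 0.106) with the pair and -0.84 (limma adjusted p = 0.136) without it. The other kinetochore and spindle checkpoint genes of this list, AURKA, AURKB, SPC25, BUB1, BUB1B, BUB3, MAD2L1 and CDC20, had line differences between -1.61 and -0.62 with the pair and between -0.92 and -0.27 without it. MKI67, which encodes the proliferation marker Ki67, had -1.37 (limma adjusted p = 0.144) with the pair and -0.67 without it, CHEK1 had -0.37 and PARP1 -0.34. Among 18 genes of the kinetochore and Survivin complex 13 fell in H1975, where 2.76% of all probes were called. In A549 0 fell, where 0.0504% of all probes were called, so that 0 says little about these genes. For a line difference limma called 0 of them, beside 1.29% of all probes, and this 0 says little as well.

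Of the TGFβ pathway genes that the study names, TGFB1, SMAD2, SMAD3, BAMBI and COL1A1 had line differences of 0.27, 0.52, -0.16, 0.40 and 0.74. Without the A549 replicate 3 pair TGFB1, SMAD2, SMAD3 and BAMBI had 0.19, 0.49, 0.05 and 0.20. COL1A1, a collagen chain, changed by -0.88, -0.72 and -0.15 in A549 and by 0.02, 0.25 and 0.20 in H1975, which did not overlap. Its limma adjusted p was 0.0714 with the pair and 0.0182 without it, at 0.96, below the size limit, so it was not called in either. The collagen chaperone SERPINH1 had 0.05 with the pair and 0.25 without it. Of 21 genes of the TGFβ pathway and response 0 were called by limma with the pair and 1, not COL1A1, without it. Over all probes these shares were 1.29% and 1.67%, so such counts say little about the list. The list median was 0.45 with the pair and 0.20 without it.

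A few called genes are described at both times, and they do not stand for the rest. CHAC1, ADM2 and ULBP1 rose at 6 h in both lines, by 2.29, 2.02 and 2.04 in A549 and by 3.20, 2.23 and 1.85 in H1975. At 24 h their mean changes in A549 were -0.31, -0.26 and -0.27, and those in H1975 were 2.77, 2.49 and 1.93. Without the A549 replicate 3 pair the 24 h means in A549 were 0.20, 0.21 and 0.05. GDF15 and C17orf107 rose at 6 h in H1975 by 1.78 and 1.50, and in A549 they changed by 0.25 and -0.31. ADAM8 changed by 0.08 in A549 and 0.48 in H1975 at 6 h, neither called. STC2 and GPT2 had the larger 6 h change in A549, at 1.22 and 1.12, against 0.19 and 0.76 in H1975. Their line differences at 6 h were -1.03 and -0.37, neither called. Over the stress response list, 5 of 19 genes rose at 6 h in A549 and 9 in H1975, against 0.193% and 0.881% of all probes called. Its median change was 0.91 in A549 and 1.0 in H1975 at 6 h.

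**Figure D4:**
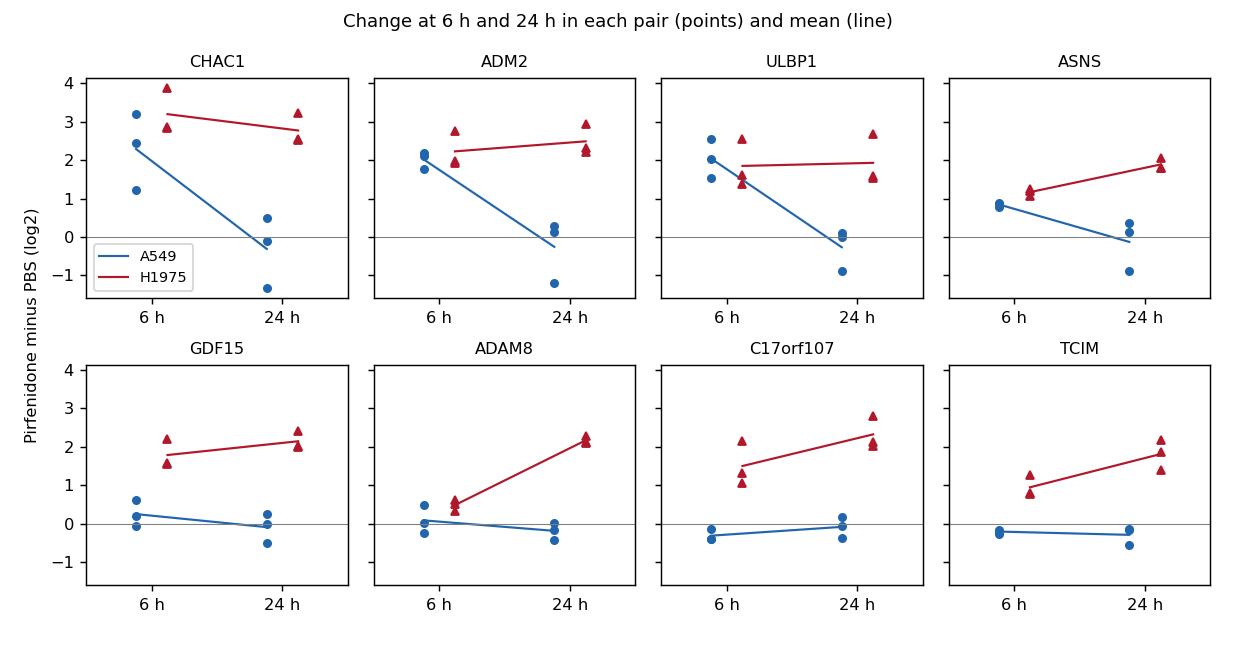
Change with Pirfenidone (log2, vertical) at 6 h and 24 h in each pair of arrays (points) and their mean (line) for 8 called genes, in A549 (blue circles) and H1975 (red triangles). The means of CHAC1, ADM2 and ULBP1 start between 1.85 and 3.20 in both lines and end between -0.31 and -0.26 in A549. Without the A549 replicate 3 pair these A549 means at 24 h lie between 0.05 and 0.21. For GDF15, ADAM8, C17orf107 and TCIM the A549 means lie between -0.31 and 0.25 at both times.

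No difference between the times was called for any probe with all pairs included. At 6 h, 49 probes had a called line difference (0.206%), 15 of which were also called at 24 h, GDF15 and C17orf107 among them. Of the 258 probes with a higher change in H1975 at 24 h, 222 had the same sign at 6 h, and of the 49 with a lower change 33 had. When the line difference at 24 h was set against that at 6 h in the same fit, limma called 0 probes, with 2767 (11.6%) at an unadjusted p under 0.05, and 12 without the A549 replicate 3 pair. For CHAC1 this contrast was 2.17 (limma adjusted p = 0.377) and for ADM2 2.54 (limma adjusted p = 0.210).

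The changes behind the line difference can be read line by line. In H1975 at 24 h 658 probes were called (2.76%), and in A549 12 (0.0504%). Without the replicate 3 pair, 243 probes were called in A549 (1.02%). None of the 19 stress response genes was among them, a count that says little about the list beside 1.02% of all probes. The line difference of that list was then 1.22 in the median, with median changes of 0.13 in A549 and 1.28 in H1975.

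**Figure D5:**
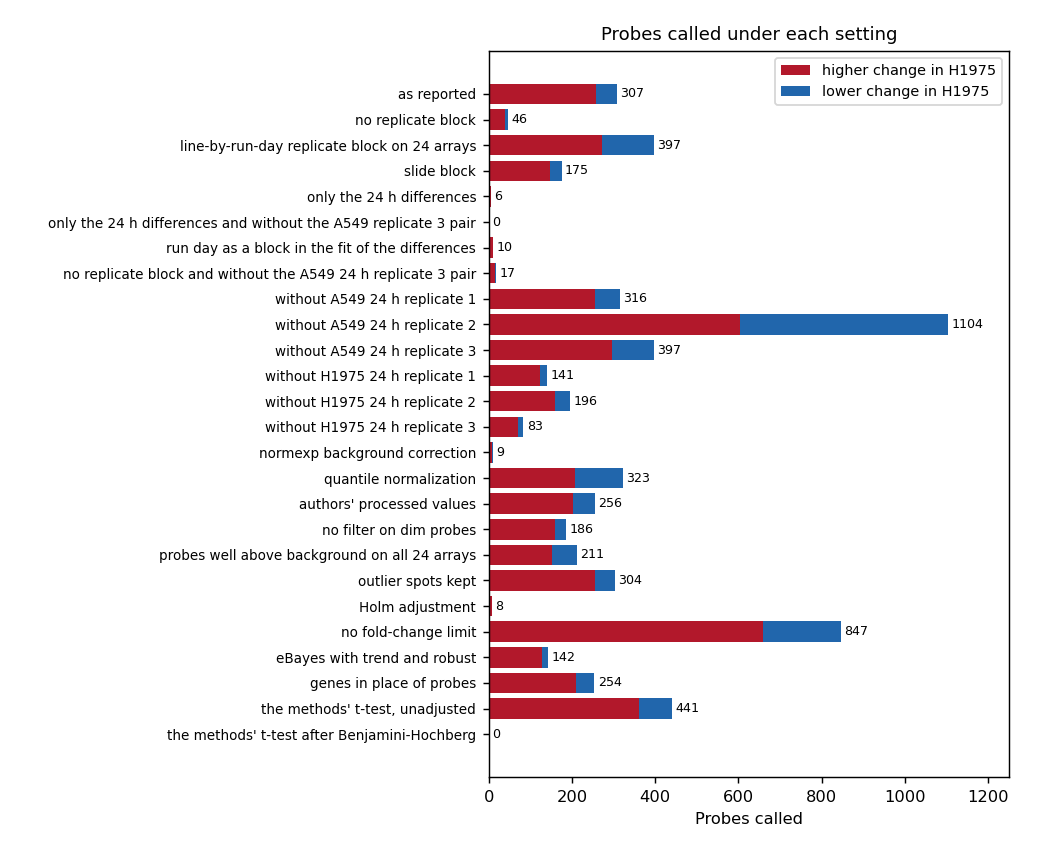
Number of probes called for the line difference at 24 h (horizontal, linear scale from 0) under each setting, split into a higher (red) and lower (blue) change in H1975. The bars run from 0 to 1104 without A549 replicate 2, against 307 as reported. A bar of 0 is that of an ordinary t-test after Benjamini-Hochberg adjustment, labeled as the methods' t-test. It is not the moderated t-test of the study.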

How the data were processed

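A549 and H1975 cells were treated with Pirfenidone or PBS for 6 or 24 h, 3 samples per group, and 24 RNA samples were hybridized to one-color Agilent arrays. The authors scanned the arrays and deposited Feature Extraction output, whose background-subtracted signal intensity was used here, together with their own normalized log2 values, deposited for the same arrays and used as an alternative. Control spots were left out and spots of a probe were averaged. The log2 intensity minus the 75th percentile of the array was tested for 23827 of 34127 probes, those well above background (at least 0.5 of their spots) on all 3 arrays of at least 1 group. At 24 h between 62.7% and 69.5% of probes were well above background per array, and the number of arrays limits the precision. Arrays of a line and time run on the same day were subtracted, and the 12 differences were fitted as 4 groups with limma 3.58.1 in R 4.3.3 (lmFit, eBayes, 8 residual and 2.37 prior degrees of freedom), with Benjamini-Hochberg adjustment over all probes, an adjusted p of 0.05 and a log2 limit of 1. The methods' familywise correction was not run, since 3 samples against 3 allow no exact two-sided p under 0.1. The S phase and G2/M lists were those of Seurat 5.3.0. Named genes were the 12 highest and 12 lowest called line differences, among probes well above background on all 12 arrays, called list members, and genes the study names. Some genes covered by this rule are not reported here. The members and lists were chosen with earlier results of these data known. The scripts were tested on simulated data. Alternatives covered pairing, slide, each replicate, background, normalization, filter and adjustment. Probe positions are those of the array files on hg19, for which no exon annotation was used, and promoter positions are on GRCh38.p14.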

Additional observations from a re-analysis of the deposited data

Results flagged for a closer look

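The 2 lines differed in the 24 h change for 307 probes by the limma test of the difference itself (adjusted p of 0.05 or less, size of at least 1), and the genes named by rule are listed here with their line differences. In the stress response these were CHAC1 (3.08), ADM2 (2.75), GDF15 (2.23), JDP2 (1.97), ATF3 (1.88), NUPR1 (1.67), STC2 (1.43), CEBPG (1.16) and VEGFA on its pair of probes (1.13 and 1.15). In amino acid supply they were SLC7A11 (2.14), ASNS (2.02), PHGDH (1.94), SLC1A4 (1.57), CTH (1.49), PSAT1 (1.40), GPT2 (1.1), CBS (1.1) and SHMT1 (-1.03). Other genes with a higher change in H1975 were C17orf107 (2.41), ADAM8 (2.35), ULBP1 (2.20), KCNG1 (2.19), FLJ43315 (2.17), GREB1 (2.15), TCIM (2.10), DUSP6 (1.63), CDKN1A (1.33), BBC3 (1.27) and NDRG1 (1.22). Genes with a lower change in H1975 were BMP5 (-1.71), ANLN (-1.67), ESCO2 (-1.58), TMPO (-1.56), PLK4 (-1.54), GLYCTK (-1.53), CENPM (-1.51), HIST1H4C (-1.45), MXD3 (-1.45), E2F2 (-1.42), CES1 (-1.42), FAM111A (-1.40), RAD51AP1 (-1.24) and HELLS (-1.0). Each of these 44 probes had 3 H1975 changes all above or all below the 3 A549 changes, as 25.8% of all probes did. All 307 called probes did so too. The calls were made from these same changes, so this is no separate evidence. The line differences listed are those with all pairs. Without the A549 replicate 3 pair ATF3, STC2, CEBPG, GPT2, CBS, SHMT1, CDKN1A, NDRG1, HIST1H4C, E2F2, FAM111A, RAD51AP1 and HELLS were not called.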

How the results depend on the processing

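No probe called both with and without the A549 replicate 3 pair changed direction. No call of a named gene was reversed under any setting, and for the other shared calls the direction was not compared. The count of 307 probes (258 higher, 49 lower) changed with most settings. With all 24 arrays fitted and no replicate block it was 46, and 17 when the A549 replicate 3 pair was also left out. With line by run day as a replicate block it was 397 (272 higher, 125 lower). In A549 at 24 h same-day deviations correlated with r values of 0.39, 0.08 and -0.10, and different-day ones between -0.41 and 0.22. The pairing by day was thus not borne out for A549 replicates 2 and 3. In H1975 the same-day values were 0.46, 0.53 and 0.72. Different-day values there were 0.39 and 0.33 between replicates 1 and 2, and between -0.58 and -0.50 with replicate 3. A slide block gave 175, only the 24 h changes 6, run day as a block in the fit of the changes 10, and only the 24 h changes without the A549 replicate 3 pair 0 (4199 at an unadjusted p under 0.05). The last of these and the run day block were added after the data were seen. Leaving out a pair gave 83 to 1104: 316, 1104 and 397 without A549 replicates 1, 2 and 3, and 141, 196 and 83 without H1975 replicates 1, 2 and 3. Normexp background correction gave 9, no filter on dim probes 186, Holm adjustment 8, no size limit 847, and eBayes with trend and robust 142. An ordinary t-test on the 3 against 3 changes called 441 unadjusted and 0 after Benjamini-Hochberg adjustment. It is not the moderated t-test that the study used for its arrays. Quantile normalization gave 323 (207 higher, 116 lower), and probes well above background on all 24 arrays gave 211 (153 higher, 58 lower). The contrast of 24 h against 6 h gave 0 calls in limma, 2 with line by run day as a replicate block, 2 after quantile normalization, and 0 to 12 when a pair was left out, 12 being without A549 replicate 3. Among the named genes ADAM8 alone was called from the 24 h changes only (limma adjusted p = 0.0398), and without a replicate block its adjusted p was 0.186. Without the A549 replicate 3 pair the list medians moved most for kinetochore and Survivin (-1.38 to -0.66), G2/M (-1.24 to -0.63) and E2F and cell cycle factors (-1.06 to -0.48), and the medians of the MYC network (0.30 to -0.10), ER chaperones, NRF2 targets and interferon-stimulated genes changed sign. The causes were not tested. Dim probes limit the comparison, since 71 of the 258 and 11 of the 49 probes were not well above background on any A549 array. Of all 23827 probes tested this held for 1543.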

Other observations

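Genes outside the lists and the 12 highest also had a higher change in H1975, and those given here were chosen after their values were seen. All were well above background on the 12 arrays. PCK2, a mitochondrial enzyme that makes phosphoenolpyruvate, had line differences of 1.81 (limma adjusted p = 0.0272) and 1.50 (limma adjusted p = 0.0324) on its pair of probes. Its changes on the first were 0.25, 0.46 and -0.88 in A549 and 1.51, 1.51 and 2.23 in H1975.

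The hair keratins KRT86 and KRT81 moved together in H1975. KRT86 changed by 1.28, 1.13 and 1.73 in H1975 and by -0.16, -0.17 and 0.06 in A549, a line difference of 1.47 (limma adjusted p = 0.00500). KRT81 had 1.24 (limma adjusted p = 0.0170). Among genes for secreted and surface proteins, ACKR3, a scavenging chemokine receptor, had 1.99 (limma adjusted p = 0.00737), SPP1, the matrix protein osteopontin, 1.90 (limma adjusted p = 0.0149), and the cytokine IL11 1.40 (limma adjusted p = 0.0277). IL11 changed by -0.72, -0.64 and 0.39 in A549 and by 0.83, 1.03 and 1.35 in H1975, and its line difference was 1.75 without the A549 replicate 3 pair.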
